A study of Mus musculus with 15 samples.

Results

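The collagen genes were the 38 genes, of 20207 in each table, whose symbol is Col, a type number, the letter a and a chain number. They comprised 11 fibrillar collagen genes (types 1, 2, 3, 5, 11, 24 and 27) and 27 other collagen genes. Their mRNA was sequenced from NIH3T3, an established line of mouse fibroblasts. These cells carried an integrated transgene for DD-sfGFP and had been sorted for high GFP. The destabilizing domain (DD), a mutant of the FKBP protein, keeps its fold only while the ligand Shield-1 (S1) is bound, and removal of S1 leaves an unfolded domain attached to the GFP. According to the study's methods, cells of all groups carried this transgene and were kept in S1 until its withdrawal. There were 5 control samples (labelled as unstressed, time 0), 3 samples taken 45 min after S1 removal, 3 taken at 135 min and 4 taken at 405 min. No control was labelled with a later time. The part of the added protein and of time in culture in the changes below was not tested. The labels do not say whether the replicates were separate cultures, so every p-value below measures the spread between these samples, which may be technical. Col6a3, the third common chain of collagen VI, was not analysed here.

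Collagens are secreted proteins in which 3 chains wind into a triple helix, and each chain of the helix repeats a Gly-X-Y triplet because only glycine fits in the centre. Fibrillar collagens I, III, V and XI assemble into the banded fibrils of connective tissue, collagen IV forms the sheet of basement membranes, collagen VI forms beaded filaments, collagen VIII forms short-chain lattices and FACIT collagens such as XII decorate fibrils. Chains are hydroxylated and folded in the endoplasmic reticulum, exported in large transport vesicles, trimmed outside the cell and crosslinked by lysyl oxidases. Fibroblasts are the main source of collagen I in the body.

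The coding sequence of the helix is shown first because it is the feature that all 38 genes share by family and because reads are counted on it. For 8 genes the first coding exon of 54 bases that lay whole within the longest uninterrupted Gly-X-Y run was read from the NCBIM37 genome, which is the mm9 assembly (GENCODE vM1 annotation). Col8a1 has no such exon, and the first 54 bases of its run are given. The exons are at chr11:94801218-94801271 (Col1a1, plus strand), chr6:4465481-4465534 (Col1a2, plus), chr1:45382205-45382258 (Col3a1, plus), chr2:27820771-27820824 (Col5a1, plus), chr1:45479231-45479284 (Col5a2, minus), chr3:113811199-113811252 (Col11a1, plus) and chr9:79460723-79460776 (Col12a1, minus). The Col8a1 stretch is at chr16:57628152-57628205 on the minus strand. Capitals mark the glycine codon that opens each triplet.
Col1a1: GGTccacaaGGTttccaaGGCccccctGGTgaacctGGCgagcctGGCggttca
Col1a2: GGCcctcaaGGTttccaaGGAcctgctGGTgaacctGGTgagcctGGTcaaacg
Col3a1: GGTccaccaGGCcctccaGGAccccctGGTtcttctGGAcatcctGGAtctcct
Col5a1: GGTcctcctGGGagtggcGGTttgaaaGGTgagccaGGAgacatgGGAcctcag
Col5a2: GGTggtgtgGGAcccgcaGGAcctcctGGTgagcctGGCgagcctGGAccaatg
Col11a1: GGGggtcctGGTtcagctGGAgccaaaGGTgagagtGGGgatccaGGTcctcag
Col8a1: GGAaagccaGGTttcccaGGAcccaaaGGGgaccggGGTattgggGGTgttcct
Col12a1: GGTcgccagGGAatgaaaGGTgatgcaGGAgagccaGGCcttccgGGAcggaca

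The 6 fibrillar genes shown have helices of nearly equal length, between 338 Gly-X-Y triplets in Col1a1, Col5a1 and Col11a1 and 344 in Col3a1. The run was 61 triplets long in Col8a1, whose helix has interruptions, and 32 in Col12a1, a chain mostly made of other domains. Of the pairs shown, the exons of Col1a1 and Col1a2 were the most alike, with 42 of 54 bases identical when aligned without gaps. The third base of the glycine codon was A or T in 75.4% of the helix codons of Col1a1, 73.2% of those of Col1a2 and 56.5% of those of Col5a1. GC content of the whole coding sequence ran from 49.0% in Col12a1 and 53.3% in Col11a1 to 63.0% in Col1a1.

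Only 20 of the 38 genes had at least 1 count in every library and were tested, 8 fibrillar and 12 other. Levels of different genes were compared by the deposited RPKM, which is scaled by transcript length and by sequencing depth. Col1a1 had the highest RPKM of all collagens in 12 of 15 libraries and Col1a2 in the other 3. The Col1a1 level had a median of 268.9 RPKM over the libraries (157.8 to 375.7) and ranked between 97 and 218 among all genes. For Col1a2 the median was 257.5 RPKM (124.3 to 299.1). Col3a1 (median 49.2 RPKM, 27.6 to 90.3) and Col5a2 (45.49 RPKM, 27.98 to 52.45) followed, and the range of Col5a2 lay within that of Col3a1. Col6a1 (30.9 RPKM), Col6a2 (24.3), Col4a1 (18.8), Col8a1 (13.5), Col16a1 (12.6), Col4a2 (9.26) and Col5a1 (8.07) came next by median, with ranges that overlapped from each to its neighbour. Col4a5 (4.80 RPKM), Col4a6 (4.48 RPKM), Col11a1 (3.02 RPKM) and Col12a1 (2.09 RPKM) were low, and 5 further tested genes had a mean under 1 RPKM. Counts of collagen genes made up between 0.507% and 1.06% of a library, and Col1a1 and Col1a2 together gave 62.4% to 69.8% of these.

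The depth ran from 6652539 counts (control replicate 3) to 30258404 counts (45 min replicate 1). The libraries also fell into a pair of sets by the slope of log2 CPM (counts scaled to library size) on the GC content of the exons. Set 2 held control replicate 2, 45-min replicate 3 and 405-min replicates 1, 2 and 4, with slopes of −0.383 to 0.031 log2 units per 10 percentage points, and set 1 held the other 10 libraries, with slopes of −1.414 to −0.667. The study's methods name more than 1 way of preparing libraries without tying libraries to them, so what the sets are is unknown. The split was made at the largest gap between neighbouring slopes (0.284), and the next gap, which sets control replicate 3 apart at the other end, was almost as wide (0.281). Since 3 of 4 libraries at 405 min but 1 of 5 controls were in set 2, the 6 collagen genes called at 405 min are also given with the set in the model and within each set, and other results with the set in the model where it changed a call. Tests were made with edgeR (quasi-likelihood, Benjamini-Hochberg adjusted p under 0.05 over 10276 genes), and log2 fold changes are given with their standard error (SE). A gene is "called" when it passed that threshold.

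At 45 min and 135 min few collagen genes moved. At 45 min, 0 of 20 were called in either direction, beside 0% of all tested genes higher and 0% lower (edgeR). At an unadjusted p under 0.05 there was 1 collagen gene and 365 genes in all, and DESeq2 also called 0 collagen genes. At 135 min 0 of 20 were called by edgeR, beside 0.564% of all genes higher and 0.895% lower, with 2 collagen genes under an unadjusted p of 0.05. Those 2 were Col12a1, with a log2 fold change of 0.65 (SE 0.20), and Col8a1. With the library set in the model Col12a1 passed as higher (0.66, SE 0.19, adjusted p 0.0486) and Col8a1 as lower (−0.39, SE 0.10, adjusted p 0.022). The shares of all genes called by that model at 135 min were 3.06% higher and 4.88% lower. All 3 libraries taken at 135 min were in set 1. Within that set, Col8a1 was called lower (−0.41, adjusted p 0.0441) and Col5a1 higher (0.49, adjusted p 0.0377), while Col12a1 was not called (0.70, adjusted p 0.092), beside 3.57% of all genes lower and 2.11% higher. DESeq2 called Col12a1 alone at 135 min. Without control replicate 5, edgeR also called 1 gene higher, Col12a1.

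At 405 min 5 collagen genes were lower and 1 was higher. Of the 8 fibrillar genes tested, 4 fell (Col11a1, Col3a1, Col5a2 and Col1a2) and 0 rose. Of the 12 other collagens, Col8a1 fell and Col12a1 rose. Over all 10276 genes, 13.4% were called lower and 9.99% higher at this time. The median log2 fold change was −0.23 over the fibrillar genes tested and 0.27 over the others, against 0 over all tested genes. The medians with the library set in the model were −0.44 and −0.11 against −0.01, so the sign for the other collagens turned, with 8 of 12 negative. In bulk RNA a lower level can come from fewer cells of a type or from less RNA per cell, and these cannot be told apart. The fibroblast markers moved in the same direction at this time: 6 of the 9 were called lower and 0 higher, with a median log2 fold change of −0.61, and −0.65 with the library set in the model. Their part in the collagen results was not tested.

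Col8a1, a short-chain collagen of vessel walls and wounded tissue, had the lowest adjusted p of the family. It lies at chr16:57624369-57754850. Its control libraries read 162.5, 132.1, 173.6, 170.6 and 169.3 CPM (replicates 1 to 5). At 45 min it read 148.1, 154.4 and 136.0 CPM, at 135 min 121.2, 133.1 and 125.9 CPM, and at 405 min 59.8, 67.5, 72.5 and 63.8 CPM. Every 405-min library was below every other library of the study. The log2 fold change at 405 min was −1.29 (SE 0.12, edgeR adjusted p 1.67e-05), which left 40.8% of the control level. It was −1.16 with the library set in the model, −1.23 within set 1 and −1.04 within set 2, and it was called in all 27 alternatives run.

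Col11a1 encodes a chain of collagen XI, the minor collagen that seeds thin fibrils (chr3:113733458-113923244). The control libraries read 49.2, 46.6, 82.5, 46.6 and 48.5 CPM, and the 405-min libraries 23.7, 21.7, 22.9 and 25.2 CPM. The 45-min libraries lay between 39.3 and 57.1 CPM and the 135-min libraries between 40.1 and 44.8 CPM. The 405-min libraries therefore did not overlap with any other group, while control replicate 3, the shallowest library, stood above the rest. The log2 fold change was −1.22 (SE 0.19, adjusted p 0.000748), a level of 42.9% of control. Without control replicate 3 it was −1.06 (adjusted p 0.000175). It was −1.24 with the library set in the model (adjusted p 0.000752). It was −1.31 within set 1, where it was not called (adjusted p 0.08 with a single 405-min library), and −0.97 within set 2.

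Col3a1 and Col5a2 are neighbours on chromosome 1. Col3a1 (chr1:45368383-45406550, plus strand), the chain of collagen III in elastic and scar tissue, and Col5a2 (chr1:45431176-45560127, minus strand), a collagen V chain that limits fibril diameter, face each other with their 3′ ends 24.6 kb apart. Col3a1 read 548.8, 753.9, 893.6, 579.4 and 721.7 CPM in the controls and 357.1, 354.2, 369.8 and 445.3 CPM at 405 min. Col5a2 read 627.5, 591.6, 854.9, 604.6 and 610.8 CPM in the controls and 489.5, 475.1, 385.9 and 370.0 CPM at 405 min. For both genes every 405-min library was below every control. The log2 fold changes were −0.87 (SE 0.18, adjusted p 0.00503) for Col3a1 and −0.61 (SE 0.14, adjusted p 0.00827) for Col5a2. They were −1.03 (adjusted p 0.000782) and −0.60 (adjusted p 0.013) with the library set in the model. Col3a1 changed by −0.90 within set 1 (adjusted p 0.1) and −0.95 within set 2 (adjusted p 0.0224). For Col5a2 the values were −0.81 (adjusted p 0.0776) and −0.40 (adjusted p 0.378), so the Col5a2 call was lost within both sets. With a GC correction for each library both calls were lost, at −0.59 for Col3a1 (adjusted p 0.0638) and −0.26 for Col5a2 (adjusted p 0.233).

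The chains of collagen I, the main fibril protein of skin, tendon and bone, did not give the same result. Col1a2 (chr6:4455697-4491543) read 2625, 2853, 2601, 2781 and 2528 CPM in the controls and 2620, 1947, 1703 and 1907 CPM at 405 min. Its 405-min replicate 1 thus lay among the controls while the other 3 lay below them. The log2 fold change was −0.39 (SE 0.13, adjusted p 0.0452), close to the threshold. It was called in 9 of 27 alternatives, had the same sign in all 27, and was lost when any 1 of 11 single libraries was left out, controls 1, 4 and 5 among them. It was −0.49 with the library set in the model (adjusted p 0.015), within set 1 −0.64 (adjusted p 0.0552) and within set 2 −0.39 (adjusted p 0.445). With the GC correction it was −0.06 (adjusted p 0.851). That correction used the GC content of all annotated exons, 44.8% for Col1a2 and 57.7% for Col1a1. The coding sequences of these genes had 59.5% and 63.0%. Col1a1 (chr11:94797584-94813170) read 2399, 3274, 3016, 2506 and 2091 CPM in the controls and 3783, 2388, 1634 and 2364 CPM at 405 min. The groups overlapped, with a log2 fold change of −0.06 (SE 0.21, adjusted p 0.83). With the library set in the model it was −0.38 (SE 0.17, adjusted p 0.17), and with the GC correction −0.68 (adjusted p 0.0159), which was a call. Within set 1 it was −0.62 (adjusted p 0.146) and within set 2 −0.19 (adjusted p 0.787).

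Col12a1, a FACIT collagen that binds the surface of collagen I fibrils (chr9:79446798-79566485), went the other way. It read 25.1, 36.9, 23.9, 30.5 and 46.2 CPM in the controls. It read 42.7, 49.7 and 49.3 CPM at 45 min, 57.8, 51.8 and 43.9 CPM at 135 min, and 45.8, 53.4, 56.1 and 49.6 CPM at 405 min. Control replicate 5 lay among the treated libraries, and the other 4 controls lay below all of them. The log2 fold change at 405 min was 0.65 (SE 0.19, adjusted p 0.0242). It was 0.62 with the library set in the model (adjusted p 0.0464), 0.82 within set 1 (adjusted p 0.23), and 0.44 within set 2 (adjusted p 0.313). It was called in 19 of 27 alternatives, and the call was lost without control replicate 1, control replicate 4, 405-min replicate 2 or 405-min replicate 4 (edgeR adjusted p between 0.056 and 0.0637).

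**Figure D1:**
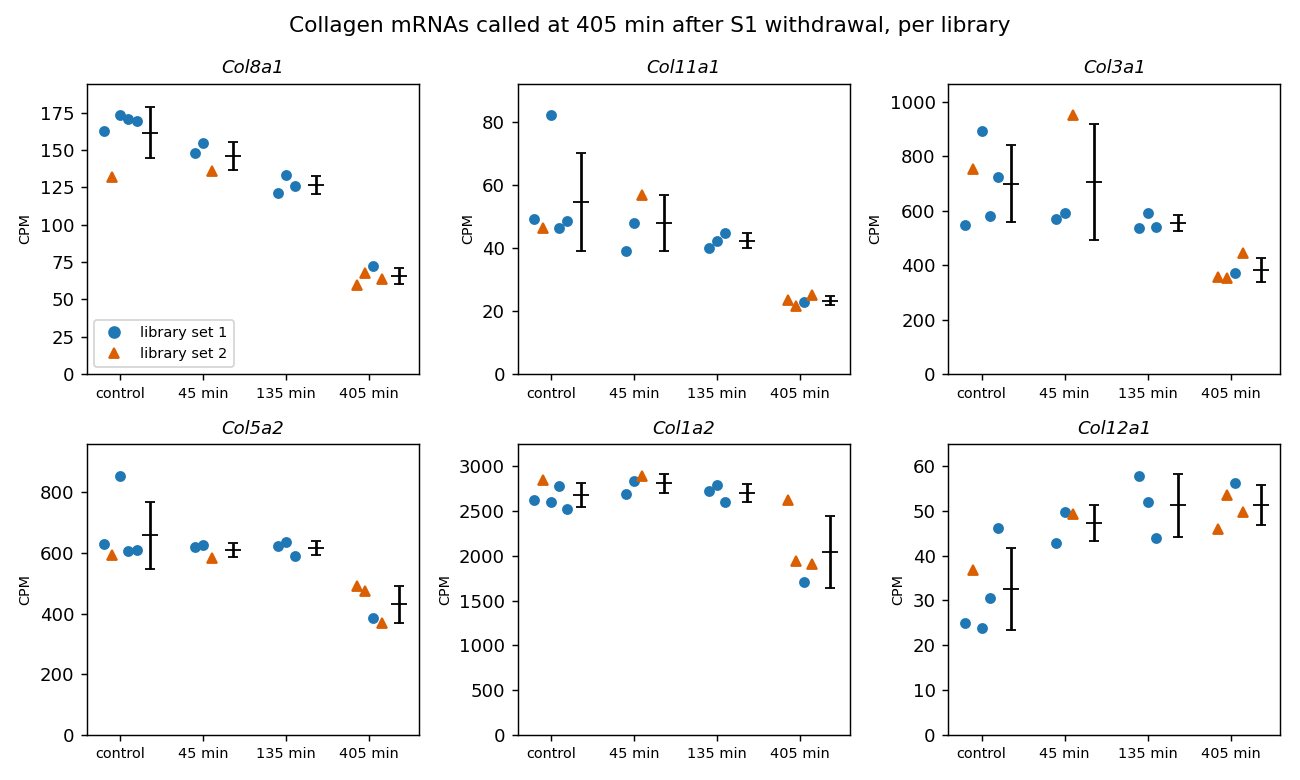
CPM (y axis, linear from 0) of the 6 collagen genes called at 405 min in each of the 15 libraries, by time after S1 withdrawal. Circles are library set 1, triangles are library set 2, and black bars are the group mean ± SD; for Col8a1, Col11a1, Col3a1 and Col5a2 the 4 libraries at 405 min lie below all 5 controls, while Col1a2 and Col12a1 overlap with them.

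Of the 20 genes tested, 4 had every 405-min library below every control (Col11a1, Col3a1, Col5a2 and Col8a1) and 0 had every one above. Among all tested genes 6.43% were below and 6.75% above in that way. With the library set in the model the counts at 405 min stayed at 5 lower and 1 higher, beside 6.87% of all genes lower and 6.17% higher, and the genes called were the same 6. Under that model 15 of the 20 log2 fold changes were negative, against 6 without it. Within set 1, which has 1 library at 405 min and 4 controls, 1 collagen gene was called lower (Col8a1) and 0 higher, beside 0.934% of all genes lower and 1.18% higher. Within set 2, with 3 libraries at 405 min and 1 control, 3 were called lower (Col8a1, Col11a1 and Col3a1) and 0 higher, beside 2.07% lower and 2.36% higher.

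**Figure D2:**
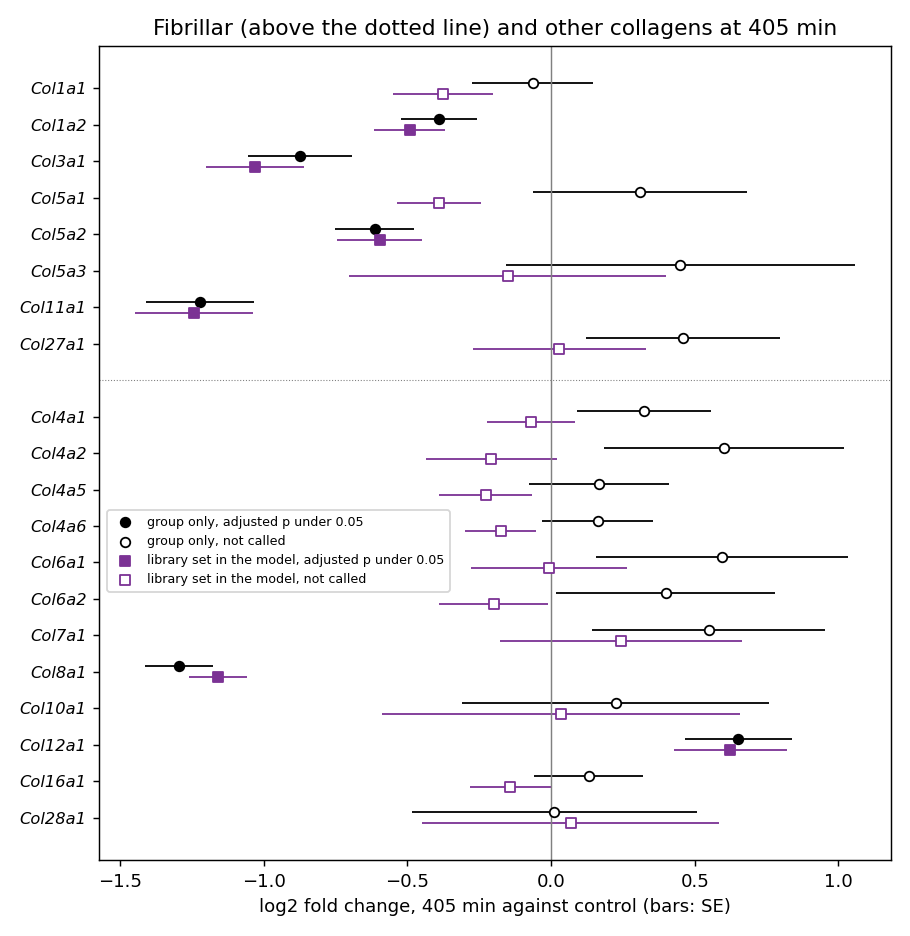
Log2 fold change at 405 min against control (x axis, bars are SE) of the 8 fibrillar collagens above the dotted line and the 12 other collagens below it. Black circles come from the model with group only and purple squares from the model with the library set added, and filled symbols have an adjusted p under 0.05; Col5a1, Col4a1, Col4a2, Col6a1 and Col6a2 lie right of 0 without the set and left of it with the set.

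Col4a1, Col4a2, Col5a1, Col6a1 and Col6a2 moved with the library set, while Col5a2 differed between the sets by −0.03 (adjusted p 0.867). Col4a1 and Col4a2, the common pair of basement membrane chains, are transcribed away from each other on chromosome 8 with 2 bases between their starts (Col4a1 at chr8:11198423-11312826, Col4a2 at chr8:11312829-11449286). Col4a1 read between 165.6 and 336.1 CPM in the controls and between 166.0 and 390.5 CPM at 405 min, with a log2 fold change of 0.32 (SE 0.23, adjusted p 0.294). For Col4a2 it was 0.60 (SE 0.42, adjusted p 0.276). The collagen VI genes Col6a1 and Col6a2 gave 0.59 (SE 0.44, adjusted p 0.307) and 0.40 (SE 0.38, adjusted p 0.431), and Col5a1, the partner of Col5a2, gave 0.31 (SE 0.37, adjusted p 0.536). With the set in the model these became −0.07, −0.21, −0.01, −0.20 and −0.39, and none was called. Leaving out control replicate 2, the single control of set 2, brought the number of collagens called higher from 1 to 6, adding Col4a1 (0.54), Col4a2 (1.03), Col5a1 (0.75), Col6a1 (1.14) and Col6a2 (0.90). Over all genes the number called higher rose as well, from 1027 of 10276 to 2517 of 10287. Without control replicate 1, control replicate 4, 405-min replicate 2 or 405-min replicate 4 the number of collagens called higher was 0. Over all genes it was then 567, 548, 502 and 431, in that order.

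The difference between the library sets was itself larger than most of the changes over time. With group in the model, set 2 was above set 1 by 1.43 on the log2 scale for Col4a2 (SE 0.20), 1.33 for Col5a1 (SE 0.13), 1.31 for Col6a1 (SE 0.24), 1.26 for Col6a2 (SE 0.16), 0.72 for Col4a1 (SE 0.13) and 0.52 for Col1a1 (SE 0.15). All 6 passed the threshold, as did 50.1% of all tested genes. Of the 10 collagen genes whose exons have a GC content of 55% or more, 9 were called higher in set 2, with a median difference of 1.02. Of the 7 genes with under 50% GC, 0 were called higher and 1 lower (Col8a1), with a median difference of 0.04. Those 7 genes included all 6 called at 405 min. Across the 20 genes GC content correlated with the set difference (Pearson r 0.77, against 0.59 over 9853 genes) and with the log2 fold change at 405 min (r 0.70, against 0.43). With the set in the model the second value was 0.45, against 0.15 over all genes. These correlations are across genes of the same libraries and have no test. The sets were themselves split by the slope on GC content. A relation of GC content to the set difference, in the counts as in the correlation, was therefore built in and is no result about collagens. GC content here is that of all annotated exons, untranslated parts and partial transcripts included, which for Col1a2 was 44.8% where its longest coding sequence had 59.5%. The coding sequence had 58.3% in Col8a1, 56.9% in Col3a1, 55.8% in Col5a2, 53.3% in Col11a1 and 49.0% in Col12a1. The place of the called genes under 50% GC thus holds for this measure only.

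**Figure D3:**
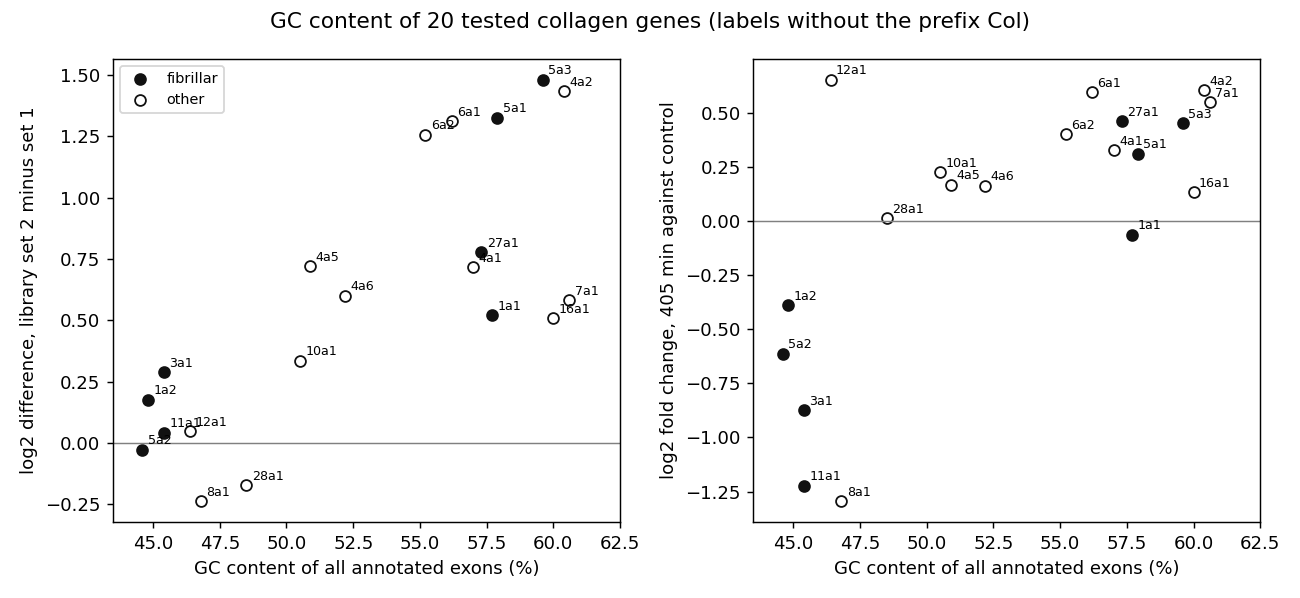
GC content of all annotated exons (x axis, percent) of the 20 tested collagen genes against the log2 difference between library set 2 and set 1 (left) and against the log2 fold change at 405 min (right); filled circles are fibrillar and open circles other collagens, labelled without the prefix Col. The 6 genes called at 405 min all lie under 50% GC by this measure, where the set difference is between −0.24 and 0.29. Their coding sequences had 49.0% to 59.5% GC. The sets were split by GC slope, so the relation in the left panel is built in.

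The ratio of chains that build 1 molecule was compared between the sets, which were split by GC slope. Exon GC content was 57.9% for Col5a1 and 44.6% for Col5a2, and 57% for Col4a1 and 60.4% for Col4a2. For chains of unlike GC content a difference in ratio between the sets was therefore built in, at least in part. The log2 ratio of Col5a1 to Col5a2 (RPKM) lay between −3.66 and −2.53 in the 10 libraries of set 1 and between −1.91 and −1.40 in the 5 libraries of set 2. For Col4a1 to Col4a2 it was 0.74 to 1.31 in set 1 and 0.26 to 0.52 in set 2. For Col1a1 to Col1a2 it was −0.14 to 0.34 and 0.31 to 0.66, with 0.10 ± 0.22 (SD, n = 5) in the controls and 0.40 ± 0.24 (SD, n = 4) at 405 min. For Col6a1 to Col6a2 the sets overlapped (−0.45 to 0.67 and 0.36 to 0.63). For collagens IV and V the libraries of the sets thus did not overlap in chain ratio, which is no separate evidence for the sets. Changes in these ratios over time could not be told apart from the set.

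**Figure D4:**
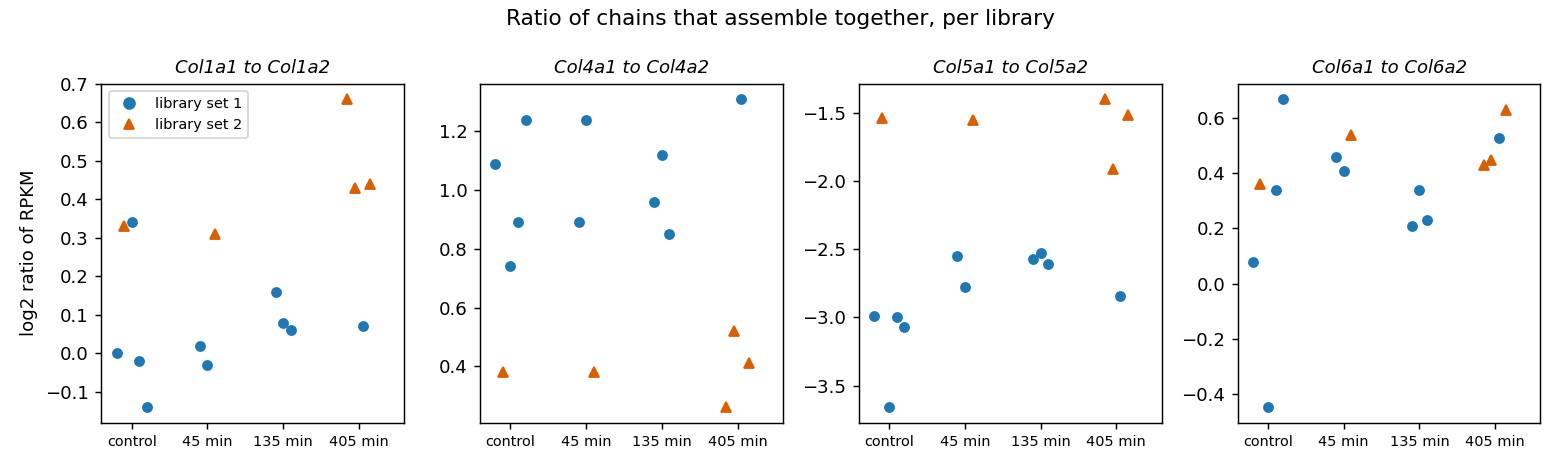
Log2 ratio of RPKM (y axis) of a pair of chains of the same collagen in each of the 15 libraries, by time after S1 withdrawal; circles are library set 1 and triangles library set 2. For Col4a1 to Col4a2 and Col5a1 to Col5a2 the triangles (0.26 to 0.52 and −1.91 to −1.40) and circles do not overlap. The sets were split by GC slope and these chains differ in GC content, so this is built in at least in part.

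Between 135 and 405 min 2 collagens fell further and 0 rose by edgeR, beside 2.82% of all genes lower and 2.24% higher. Col8a1 changed by −0.94 (SE 0.13, adjusted p 0.00194) and Col11a1 by −0.86 (SE 0.21, adjusted p 0.0299). With the library set in the model 3 were called lower and 0 higher (2.01% of all genes lower, 1.66% higher): Col8a1 (−0.77, adjusted p 0.00307), Col5a1 (−0.85, adjusted p 0.0157, where the fit without the set gave a positive value) and Col3a1 (−0.75, adjusted p 0.0477). Col11a1 missed the threshold there, at −0.89 (adjusted p 0.0504). In the fit without the set, 1 gene (Col8a1) stayed called when any 1 of the 135-min libraries, or 405-min replicate 1, 2 or 4, was left out, and without control replicate 1 there was 1 gene called higher, Col9a3, which that library otherwise keeps out of the test. Col7a1, the anchoring fibril collagen, was called higher by DESeq2 (1.35, adjusted p 0.0353) and when only these groups were fitted (edgeR, 1.36, adjusted p 0.0227), against an adjusted p of 0.0976 in the fit of all groups. Of the 20 log2 differences 19 were negative with the library set in the model, with a median of −0.49 against 0.02 over all genes, while without it 8 of 20 were negative. The libraries at 135 min are all of set 1 and 3 of 4 at 405 min are of set 2, so this comparison leans on how the model estimates the set.

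The other 18 collagen genes had a count of 0 in at least 1 library. Their highest value in any library was 0.707 RPKM, and 16 of them had a mean under 0.1 RPKM. They included the cartilage collagen genes Col2a1, Col9a1, Col9a2 and Col11a2, the transmembrane collagens Col13a1, Col17a1, Col23a1 and Col25a1, and the multiplexins Col15a1 and Col18a1. Col18a1, the precursor of endostatin, had 0, 7, 0, 8 and 0 counts in the controls and 20, 13, 6 and 21 counts at 405 min, where every library was above every control in CPM. In the fit without a filter its log2 fold change at 405 min was 2.23 (SE 1.01, edgeR adjusted p 0.177). Col9a3, a chain of the FACIT collagen IX, was left out because control replicate 1 had 0 counts. It had 12, 7, 18 and 26 counts in the other controls, 6 to 20 counts at 45 and 135 min, and 37, 32, 42 and 46 counts at 405 min. In the fit without a filter its log2 fold change at 405 min was 1.57 (SE 0.69, adjusted p 0.165). The fit that left out control replicate 1 did test Col9a3 and called it higher at 405 min than at 135 min (2.63, edgeR adjusted p 0.0132), but not against the controls. Col9a3 and Col7a1 were named after their values were seen. None of the other 17 genes was called in any alternative run. Most of these runs could not call them, because they tested only genes with a count in every library fitted.

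Promoters of the genes that were lower at 405 min are given for context. The RefSeq table (build GRCm38.p6) held promoters for 30 of the 38 collagen genes, and for 4 of the 5 that fell. The 120 bases before the annotated start are printed, with 2 motifs in capitals where they occurred on either strand: CCAAT (or its complement ATTGG) and TATAAA (or TTTATA). They are at chr6:4505498-4505617 (Col1a2, plus strand), chr1:45311418-45311537 (Col3a1, plus), chr3:114030420-114030539 (Col11a1, plus) and chr16:57754738-57754857 (Col8a1, minus).
Col1a2: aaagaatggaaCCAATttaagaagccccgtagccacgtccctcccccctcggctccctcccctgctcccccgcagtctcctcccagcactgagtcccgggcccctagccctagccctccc
Col3a1: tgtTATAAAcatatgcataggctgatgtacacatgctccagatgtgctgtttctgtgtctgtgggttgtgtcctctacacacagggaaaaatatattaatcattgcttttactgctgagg
Col11a1: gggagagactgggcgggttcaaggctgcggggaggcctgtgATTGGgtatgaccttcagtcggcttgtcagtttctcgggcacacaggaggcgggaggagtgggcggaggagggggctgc
Col8a1: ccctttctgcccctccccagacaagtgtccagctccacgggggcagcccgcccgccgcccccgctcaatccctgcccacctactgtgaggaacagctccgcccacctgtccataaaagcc
A CCAAT letter match was present in Col1a2 and Col11a1, a TATAAA match in Col3a1, and neither in Col8a1. Over all 32851 promoters in the table, 21.3% held CCAAT and 6.3% held TATAAA in this window. The matches are a description of letters, not of binding.

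Genes that make, export, process or bind collagen were taken from 7 lists with 113 genes in the tables, of which 85 were tested. At 405 min 7 were called higher and 13 lower, beside 9.99% of all genes higher and 13.4% lower, and the median log2 fold change over the 85 was 0.06, against 0 over all genes. At 45 min and at 135 min 0 were called in either direction. With the library set in the model 6 were higher and 14 lower at 405 min, beside 6.17% and 6.87% of all genes. Leaving out control replicate 2 raised the number called higher from 7 to 24, leaving out 405-min replicate 3 raised it to 14, and leaving out 405-min replicate 2 or 4 lowered it to 4. Over all genes the number called higher, 1027 of 10276, became 2517 of 10287 without control replicate 2 and 1508 of 10298 without 405-min replicate 3. It became 502 of 10278 and 431 of 10281 without 405-min replicates 2 and 4.

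Among the 20 biosynthesis enzymes and chaperones tested, 3 were higher and 2 lower at 405 min, beside 9.99% of all genes higher and 13.4% lower. Prolyl 4-hydroxylase, the enzyme that makes the hydroxyproline of the helix, was divided: the catalytic subunits P4ha1 and P4ha3 fell, by −0.74 (SE 0.15, adjusted p 0.00457) and −1.62 (SE 0.34, adjusted p 0.00567), while the subunit P4hb, protein disulfide isomerase, rose by 0.42 (SE 0.14, adjusted p 0.0457). The P4ha1 level was 192.9 to 350 CPM in the controls and 144.2 to 177.3 CPM at 405 min, without overlap. P4hb was not called with the library set in the model (0.23, adjusted p 0.165). Lepre1, the prolyl 3-hydroxylase of collagen I, rose from 13.1 to 33.1 CPM in the controls to 33.6 to 68.6 CPM at 405 min (log2 fold change 1.36, SE 0.27, adjusted p 0.004), and Fkbp14, a prolyl isomerase, rose by 0.91 (SE 0.24, adjusted p 0.0162), a call lost with the library set in the model (0.83, adjusted p 0.0527). Serpinh1, the collagen chaperone Hsp47, gave −0.06 (SE 0.13, adjusted p 0.741), P4ha2 gave 0.47 (adjusted p 0.104) and the lysyl hydroxylase Plod2 gave 0.29 (adjusted p 0.253).

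The list of collagen secretion had 14 genes tested: COPII coat genes, their regulators and transcription factors of the pathway. Of these, Sec23b and Sec24d rose and 0 fell, beside 9.99% of all genes higher and 13.4% lower. With the set in the model the transcription factor Creb3l1 was also called, as lower (−0.80, adjusted p 0.0459). Sec24d was at 121.3 to 166.6 CPM in the controls and at 207 to 275.2 CPM at 405 min (log2 fold change 0.84, SE 0.14, adjusted p 0.0012), again without overlap. Sec23b rose by 1.01 (SE 0.27, adjusted p 0.0191), with control replicate 3 (14.3 CPM) far below the other controls (47.3 to 58.4 CPM). Of the 11 genes of processing and crosslinking, 1 was called, beside the same shares of all genes. Lox, the lysyl oxidase that crosslinks fibrils, fell from 946.4 to 1360 CPM in the controls to 571.9 to 846 CPM at 405 min (log2 fold change −0.84, SE 0.16, adjusted p 0.00263). With the set in the model Lox (−0.97) and the transglutaminase Tgm2 (−0.83, adjusted p 0.0209) were called lower. Bmp1, the C-propeptide protease, gave 0.62 (SE 0.28, adjusted p 0.108).

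The fibril-associated matrix proteins held the most lower calls of the 7 lists, 8 of 19 tested, with 0 higher and a median log2 fold change of −0.61. Beside this list and those that follow, 13.4% of all genes were called lower and 9.99% higher at 405 min. Thbs1, thrombospondin 1, went from 379.3 to 957.8 CPM in the controls to 153.4 to 260.1 CPM at 405 min (−1.62, SE 0.22, adjusted p 0.000336). The small leucine-rich proteoglycans Ogn, Prelp and Aspn fell by −2.02, −1.55 and −1.99 (adjusted p 0.0128, 0.00503 and 0.0248), of which Aspn was not called with the library set in the model (adjusted p 0.102). Ogn overlapped, at 51.8 to 307.3 CPM in the controls and 21.8 to 105.5 CPM at 405 min. In set 2 its control read 51.8 CPM and the 405-min libraries 21.8 to 40.7 CPM. Aspn overlapped as well (2.185 to 14.18 and 1.145 to 3.284 CPM), while Prelp did not (2.092 to 5.21 and 1.145 to 1.659 CPM). Sparc, which binds collagen in the cell and in the matrix, gave −0.30 (SE 0.15, adjusted p 0.134), and −0.51 (adjusted p 0.006) with the set in the model. Among the 11 basement membrane partners of collagen IV, Nid1 (nidogen 1) rose by 0.93 (SE 0.21, adjusted p 0.00861) and Lamb1-1 (laminin beta 1) fell by −0.41 (SE 0.11, adjusted p 0.0206). Of the 5 collagen receptor genes tested, 0 were called, and with the set in the model Itga11 was called lower (−1.23, adjusted p 0.041). Of the 5 collagen-degrading proteases tested, Mmp9 rose by 3.18 (SE 0.63, adjusted p 0.00395) from at most 2.79 CPM in the controls to between 5.31 and 9.88 CPM, and Fap fell by −2.44 (SE 0.59, adjusted p 0.0114) from at most 3.14 CPM to at most 0.29 CPM. The 3.14 CPM of Fap was in control replicate 3, and the other controls read 0.54 to 1.31 CPM. Fap was not called with the set in the model (−2.05, adjusted p 0.0535).

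From 135 to 405 min Lox (−0.75, adjusted p 0.0255), Vcan (−1.25, adjusted p 0.00946), Fbn1 (−0.95, adjusted p 0.0499), Thbs1 (−0.90, adjusted p 0.0456) and Lamb1-1 (−0.58, adjusted p 0.0196) were lower, and Lepre1 (1.21, adjusted p 0.0414) and Sec24d (0.64, adjusted p 0.0342) were higher. These 5 lower and 2 higher stand beside 2.82% and 2.24% of all genes. With the library set in the model 9 were lower and 0 higher, beside 2.01% and 1.66%. The counts without the set ran from 0 to 9 lower and from 0 to 8 higher as single libraries were left out, with 0 of either direction without 135-min replicate 1 or 2. Over all genes these counts ran from 23 to 637 lower and from 19 to 755 higher.

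**Figure D5:**
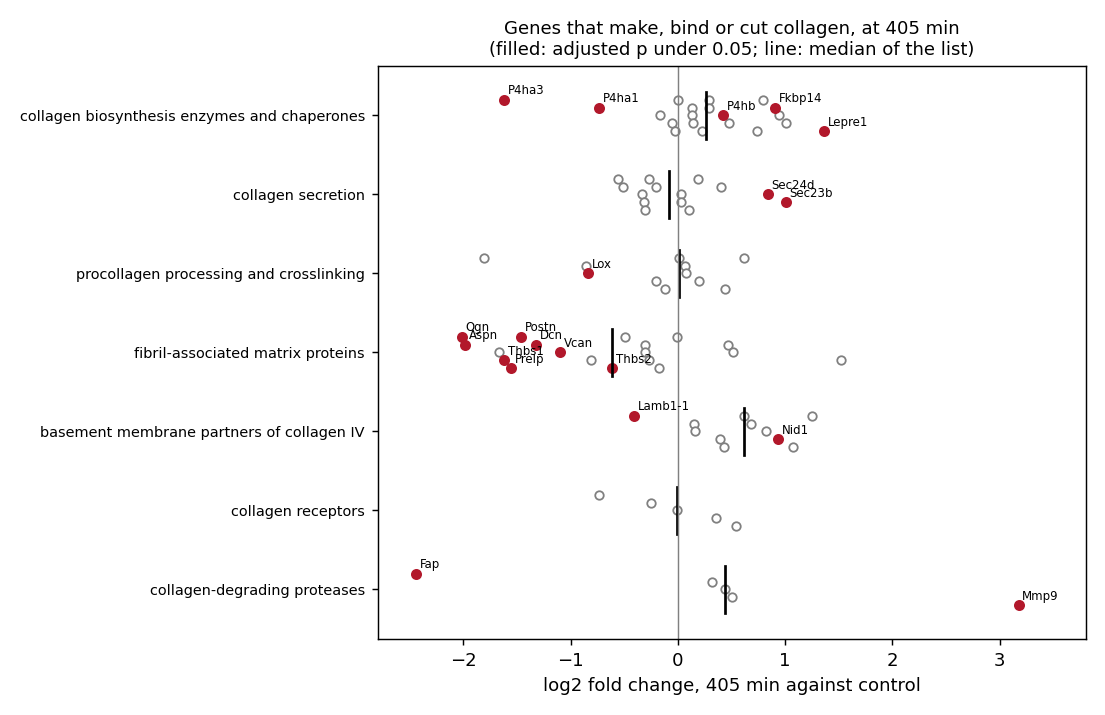
Log2 fold change at 405 min against control (x axis) of the 85 tested genes of 7 lists (rows); red filled circles have an adjusted p under 0.05 and are named, grey open circles do not, and the black line is the median of each list. In the fibril-associated matrix proteins 8 of 19 are called, all lower, with a median of −0.61, beside 13.4% of all genes called lower.

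The cells were checked against markers of other cell types that make collagen. All 9 fibroblast markers listed were detected in every library. Their summed level was 1500 to 3570 RPKM in the controls, 3210 to 4110 RPKM at 45 min, 3380 to 3430 RPKM at 135 min and 2180 to 2830 RPKM at 405 min. RPKM of all genes summed to 159763 in control replicate 3 and to 205986 to 312664 in the other libraries, so these sums lack a common scale. At 135 min edgeR called 2 of the 9 lower and 0 higher, beside 0.895% and 0.564% of all genes. With the library set in the model 4 were lower and 0 higher, beside 4.88% and 3.06%. Epithelial, endothelial and leukocyte markers summed to at most 0.727, 0.293 and 2.02 RPKM. The leukocyte sum was 1.44 to 2.02 RPKM at 405 min and 0.213 to 1.07 RPKM in the controls, without overlap, with Cd68 the highest of its markers (at most 1.9 RPKM) and Ptprc at most 0.0699 RPKM. Itgam, the only leukocyte marker tested (at most 0.306 RPKM), went the other way and was not called. Its log2 fold change at 405 min was −1.29, and −0.88 with the library set in the model. Among single tested genes 6.75% had every 405-min library above every control. The epithelial sum was 0.516 to 0.727 RPKM at 405 min and 0.225 to 0.492 RPKM in the controls, also without overlap, with Krt14 the highest (at most 0.647 RPKM) and Epcam at most 0.18 RPKM. The part of these markers in the results was not tested. Of the cartilage markers Sox9 was at 9.98 to 27.3 RPKM, while Acan, Matn1 and Matn3 were at most 0.057, 0.0929 and 0.15 RPKM. Of the smooth muscle markers Acta2 was at 56.4 to 431 RPKM, while Myh11, Des and Cnn1 were at most 0.0238, 0.115 and 0.408 RPKM.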

How the data were processed

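The 38 genes were all those whose identifier matched the collagen naming pattern. The genes, the related lists and the tests were chosen with earlier results of these data known. Poly(A) RNA of 15 samples was sequenced on Illumina instruments. Alignment by the authors was to mm9, the build that the submitters' processing notes name, with analysis against RefSeq genes on DNAnexus per the methods (the aligner is not given in the sources used here). The read counts deposited by the authors are expected counts (estimated counts that need not be whole, written to 4 significant digits when large) and were rounded to whole numbers. The RPKM values deposited by the authors served for levels between genes and chain ratios. The score column deposited by the authors (a Z-score of RPKM over the genes of a sample) and the deposited ratio of RPKM to its root mean square over genes were not used. Genes whose reads could be shared between copies were not separated further. Multi-mapping rules were not given in the sources used here.

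Groups and replicate numbers came from the sample titles. Counts were tested with edgeR 4.0.16 in R 4.3.3 (TMM, quasi-likelihood F-test, group only, all 15 samples in 1 fit), for genes with at least 1 count in every library (10276), with Benjamini-Hochberg adjustment over all of them. The SE was obtained as the absolute log2 fold change divided by the root of the F statistic. CPM used TMM library sizes. Log2 CPM for the outlier check had a prior count of 2. The script was tested on simulated data. Total counts were 6652539 to 30258404 per library. The 22 replicate pairs differed beyond counting noise (chi-square per degree of freedom 10.0 to 237.2), so none was merged. GC content came from GENCODE vM1 exons on NCBIM37, for 95.9% of tested genes. The files' coordinates overlapped that annotation for 99.4% of matched genes. Library sets were split at the largest gap between GC slopes. Same-numbered samples did not deviate together (mean r −0.11 over 19 pairs, 4 of them over 0.1, and 0.034 with 8 over 0.1 once the library set was removed).

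Always named were 14 collagen genes and 8 related genes, plus every other collagen gene called in any comparison and, for each related list, up to 4 called genes per direction. Alternatives were DESeq2 (1.42.0) and its size factors, no filter, filterByExpr, only the groups compared, the library set in or out of the model, a GC offset per library (lowess span 0.3), the replicate number as a block, and leaving out each library in turn.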

Additional observations from a re-analysis of the deposited data

Results flagged for a closer look

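In 12 collagen genes the controls and the 405-min group were each searched for a library far from the rest, 24 groups in all, and 4 stood out. For a single search chance gives about 1 in 20. The genes share the same libraries, so the searches are not independent and the 4 cannot be set against that rate. All came from control replicates 2 and 3. The gap to the nearest library, as a share of the group's range, was 0.858 for Col5a1 in control replicate 2 (259 CPM, others 86.1 to 101), 0.757 for Col8a1 in the same library (132 CPM, others 162 to 174), 0.84 for Col5a2 in control replicate 3 (855 CPM, others 592 to 627) and 0.903 for Col11a1 in that library (82.5 CPM, others 46.6 to 49.2). Control replicate 2 is the single control of library set 2, and control replicate 3 is the shallowest library with the steepest GC slope (−1.414). The part of set and depth in these values was not tested.

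The change at 405 min differed from the change at 135 min, by the test of the difference in the same fit, for Col11a1 (−0.86, edgeR adjusted p 0.0299) and Col8a1 (−0.94, edgeR adjusted p 0.00194). Col11a1 kept this in 13 of 26 alternatives and Col8a1 in 24 of 26.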

How the results depend on the processing

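At 45 min 0 collagen genes were called under all alternatives run. At 135 min, against 0 higher and 0 lower, DESeq2 gave 1 higher, the library set in the model 1 higher and 1 lower, set 1 alone 1 and 1, and the replicate block with the set 1 higher; leaving out single libraries gave 0 to 1 higher. At 405 min, against 1 higher and 5 lower, no filter gave 0 higher, only the groups compared 0 higher and 3 lower, set 1 alone 0 and 1, set 2 alone 0 and 3, and the replicate block with the GC offset 3 lower; single libraries gave 0 to 6 higher and 4 to 5 lower. Between 135 and 405 min, against 0 higher and 2 lower, DESeq2 gave 1 and 4, only the groups compared 1 and 4, no filter 1 lower, set 1 alone 0 lower, the replicate block 0 lower and the block with the GC offset 1 lower; single libraries gave 0 to 1 higher and 1 to 3 lower.

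For the related genes at 135 min, against 0 and 0, the set in the model gave 3 higher and 3 lower, set 1 alone 2 and 3, the replicate block with the set 3 and 2, the GC offset 1 higher and the block with the GC offset 1 higher; single libraries gave 0 to 1 lower. At 405 min, against 7 and 13, set 1 alone gave 0 and 2 and set 2 alone 3 and 2; single libraries gave 4 to 24 higher and 10 to 19 lower. Between 135 and 405 min, against 2 and 5, DESeq2 gave 7 and 10, only the groups compared 11 and 12, no filter 0 and 1, filterByExpr 1 higher, the set in the model 0 and 9, set 1 alone 0 and 0, the replicate block 0 and 0, the block with the set 0 higher and the block with the GC offset 0 and 2; single libraries gave 0 to 8 higher and 0 to 9 lower.

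The 6 collagen genes called at 405 min kept their direction in all 27 alternatives. With the GC offset Col3a1, Col5a2 and Col1a2 were no longer called at 405 min and Col1a1 was (with Col16a1, −0.43, edgeR adjusted p 0.0232, without the block). Col4a1, Col4a2, Col5a1, Col6a1 and Col6a2, called higher without control replicate 2, were negative with the set in the model. Same-numbered samples share only a number, so a call lost with the replicate block is not a smaller effect. The within-set fits have 1 sample in an arm, assumed to vary like the other groups. Over all genes, leaving out single libraries gave 418 to 2517 called higher and 528 to 2463 called lower at 405 min. The causes of these shifts were not tested.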
